A study of Mus musculus with 6 samples.

Results

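The genes described here build the actin and microtubule cytoskeleton of newborn mouse forearm bone: actins, tropomyosins, alpha-actinins, filamins, the Arp2/3 complex, small actin-binding proteins, tubulins and the proteins that bind tubulin. They were taken by gene family from the probe sets that list exactly 1 gene symbol, which gave 45 of the 5780 named genes, on 52 of the 8997 probe sets. Where a gene had several probe sets, which was so for 5 genes, the brightest one over all arrays stood for it. A further 11 probe sets list several symbols, at least 1 of them from these families, and were not used. RNA of radii and ulnae came from newborn mice of the strain 129sv, and 3 arrays held wild-type bone and 3 held bone of littermates with the del175k mutation of Tnni2, which encodes fast skeletal muscle troponin I. The labels speak of 3 pairs but do not say which replicates belong together, nor the zygosity of the mutants or how many mice gave each array. A p-value here therefore sets a difference between the groups only against the spread of these samples within groups, part of which may be technical. All values are linear intensities, and since probe sets differ in brightness for reasons of design, each gene is compared only with itself across arrays.

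Actin monomers assemble into filaments that give cells shape, tension and movement, and microtubules of alpha- and beta-tubulin serve as tracks and build the mitotic spindle. Muscle has its own forms of many of these proteins, packed into sarcomeres, while bone, cartilage, marrow and vessel cells use the non-muscle forms. Smooth muscle actin marks the cells around vessels and contractile fibroblasts. The 45 genes were divided into 9 muscle forms (8 of the sarcomere and the smooth muscle actin Acta2) and 36 non-muscle forms, by the known use of each gene. Tpm1 and Tpm2, counted here as muscle forms, also make products in other cells, and Tpm3, counted as non-muscle, also makes one in slow muscle. In bulk bone, fewer cells of a type and less RNA per cell cannot be told apart.

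The array of wild-type replicate 1 was dimmer than the rest, with a median intensity of 39.6 against 45.5 to 48.4, and held the lowest value of 4499 of the 8997 probe sets and of 19 of the 45 genes. Every one of the 8997 probe sets reached an intensity of 20 on 3 or more arrays, as a filter by level would leave them, and a gene under 20 in all wild-type samples could be listed only with all mutant values above them. Bone and cartilage markers were bright, with summed intensities of 11317 to 14384 for 6 measured of 10 osteoblast genes and 4971 to 7722 for 11 of 11 chondrocyte genes. Tnni2 stood at 102, 165 and 258 in wild-type replicates 1 to 3 and at 134, 127 and 198 in mutant replicates 1 to 3, with a log2 difference of -0.12 ± 0.33 (SE). A mutation that removes a codon need not change this level, so it is no check of the genotype labels.

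Among the 45 genes, a small set of non-muscle cytoskeletal genes and smooth muscle actin had lower mean levels in mutant bone without passing adjustment, while the sarcomere forms had no shared direction and the Arp2/3 complex lay close to the wild-type level. The lower set held the LIM-domain genes Crip1 and Crip2, the actin-binding Tagln2, the tropomyosin Tpm4, Acta2, the tubulin Tuba1a and the tubulin-binding Tppp3, at 0.506 to 0.704 of the wild-type level. No gene passed at an adjusted p of 0.05 with limma's moderated test over all probe sets, where 0.00% of probe sets passed, and the smallest adjusted p of a member was 0.42. At an unadjusted p under 0.05, 7 of 45 members (15.6%) were lower against 1.70% of all probe sets, and 2 (4.44%) were higher against 5.74%. The members were chosen with earlier results of these data known, so the shares given here describe them and are not a test. The same 7 genes had every mutant value under the lowest wild-type one (15.6% against 3.89% of probe sets) and 2 had every mutant value above the highest one (4.44% against 9.18%). Most members are bright, 38 of 45 above the median probe set, but the shares among the brighter 50% of probe sets were close to those of all. At an unadjusted p under 0.05 they were 1.78% lower and 5.45% higher, with no overlap of groups 3.40% lower and 8.40% higher, and by the mean 43.1% lower.

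The count of 7 was 4 without wild-type replicate 2, wild-type replicate 3 or mutant replicate 1, where Acta2, Crip2 and Tagln2 no longer reached that p. It was 9 after quantile normalization and 9 after median centring, where 3.58% and 3.27% of all probe sets were lower. With array weights it was 17, where 8.85% of all probe sets were lower. Crip1, Tpm4, Tppp3 and Tuba1a were among the lower members under each of the 15 alternative settings. Means were lower in mutant bone for 29 of 45 members (64.4%) and for 43.3% of all probe sets. The median log2 difference was -0.11 over the 45 members and 0.045 over all probe sets. It was 0.08 over the 9 muscle forms and -0.18 over the 36 non-muscle forms. Without wild-type replicate 1 these medians were -0.20 and -0.32, beside -0.033 for all probe sets, and without mutant replicate 3 they were -0.11 and -0.28.

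**Figure D1:**
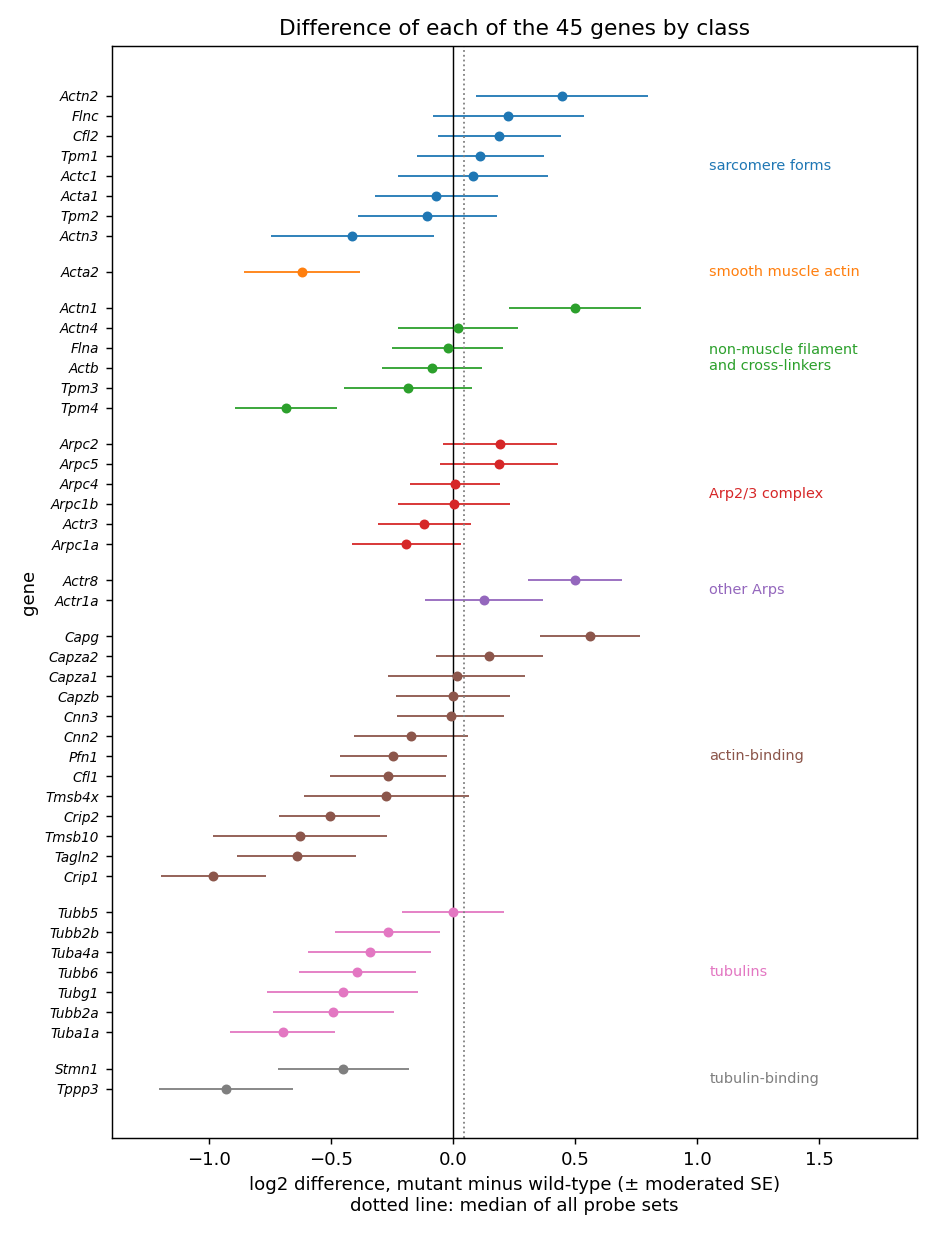
Log2 difference between mutant and wild-type samples (x axis, mutant minus wild-type, n = 3 arrays each) for each of the 45 genes, grouped by class on the y axis, with bars of 1 moderated SE and a dotted line at the median of all probe sets (0.045). The tubulin and tubulin-binding genes all lie at or left of 0, the Arp2/3 genes lie between -0.19 and 0.19, and the sarcomere forms lie on both sides.

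Crip1, for a small LIM-domain protein found with actin in many cells, had the largest difference of the 45 genes. Its intensity was 144, 122 and 163 in wild-type replicates 1 to 3 and 60.0, 74.6 and 83.0 in the mutant replicates. Every mutant value was thus well under the lowest wild-type value, and the log2 difference of -0.98 ± 0.21 (SE), or 1.98-fold lower, had a limma adjusted p of 0.42. Crip2, its close relative in vessels and heart, read 115, 139 and 158 in wild-type bone and 84.5, 104 and 100.3 in mutant bone. The groups did not overlap here either, but the gap was narrow, at a log2 difference of -0.51 ± 0.21 (limma adjusted p = 0.667).

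Tagln2 encodes transgelin-2, a calponin-family protein that binds actin filaments outside muscle. It stood at 77.7, 117 and 135 in the wild-type samples and at 60.0, 74.1 and 72.6 in mutant bone. The dim array of wild-type replicate 1 came close to the highest mutant value. Its log2 difference was -0.64 ± 0.24 (limma adjusted p = 0.664), and -0.87 without that array. Tpm4, the non-muscle tropomyosin that coats stress fibres, was even in wild-type bone, at 117, 129 and 131. In the mutants Tpm4 read 64.0, 79.7 and 92.7, all under the wild-type range, with a log2 difference of -0.69 ± 0.21 (limma adjusted p = 0.591). The other non-muscle tropomyosin gene, Tpm3, has 4 probe sets that disagreed, at log2 differences of -0.19 on the brightest, 0.40 on the next and -0.16 on both of the dimmest, none of them beyond 2 SE, so no direction is given for it.

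The main non-muscle actin listed, Actb, stood at 3496 ± 564 in wild-type bone and 3268 ± 240 in mutant bone (SD, n = 3 each), a log2 difference of -0.086 ± 0.20. Actins and tubulins are near-identical families, so a probe set listed under 1 name may also bind RNA of another member. The cross-linkers of non-muscle filaments had means near the wild-type level or above it with all arrays. Flna, for filamin A, was at 255 ± 60.0 and 246 ± 13.8, and the alpha-actinin Actn4 at 242 ± 68.2 and 238 ± 6.10 (SD, n = 3 each), with log2 differences of -0.023 and 0.018 that were -0.23 and -0.24 without wild-type replicate 1. Actn1, the alpha-actinin of focal adhesions and stress fibres, was higher on average, at 39.1, 67.5 and 73.8 in wild-type bone and 96.4, 81.5 and 69.8 in mutant bone. Its groups overlapped, since mutant replicate 3 lay under wild-type replicate 3, and the log2 difference was 0.50 ± 0.27 (limma adjusted p = 0.708), and 0.21 without wild-type replicate 1.

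**Figure D2:**
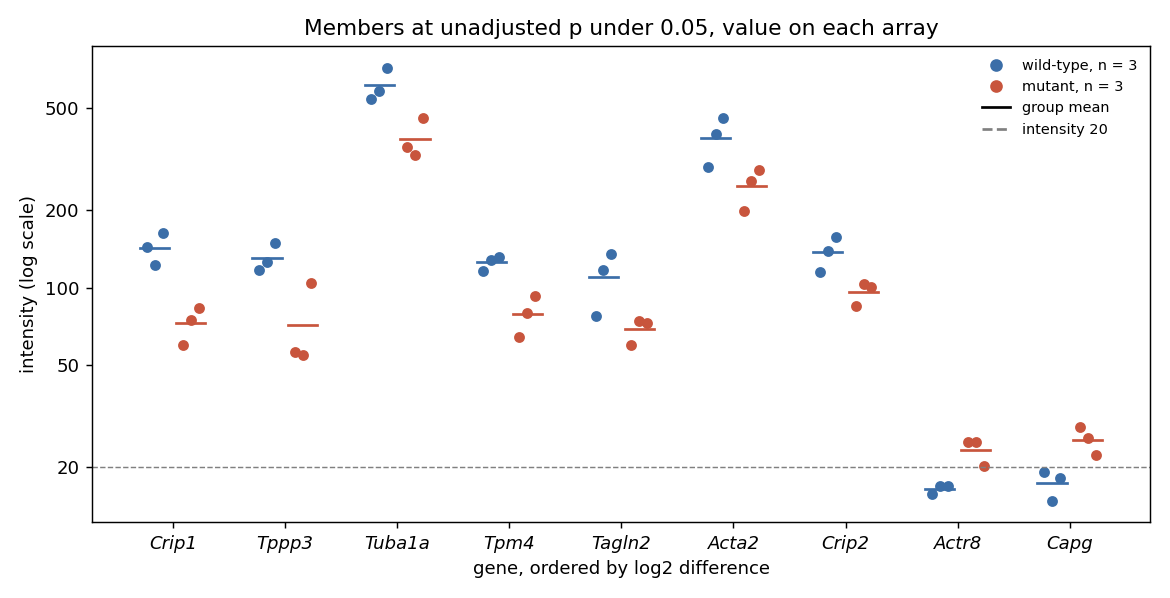
Intensity (y axis, log scale) on each of the 6 arrays for the 9 members at an unadjusted p under 0.05, with points for arrays (replicates 1 to 3 from left to right in each group), bars for the mean of 3, and a dashed line at an intensity of 20. For the 7 genes on the left every mutant point lies below every wild-type point, and for Actr8 and Capg all wild-type points lie under 20.

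Acta2, the actin of smooth muscle, pericytes and contractile fibroblasts, was the muscle form with the smallest p. Its values were 296, 396 and 460 in wild-type replicates 1 to 3 and 199, 260 and 287 in mutant bone. The highest mutant value lay just under the lowest wild-type value, which again came from the dim array. The log2 difference was -0.62 ± 0.24 (limma adjusted p = 0.664), and -0.80 without wild-type replicate 1. Of 10 genes of smooth muscle and pericytes other than the members, 4 were measured (Smtn, Des, Notch3 and Pdgfrb), and 3 of them had higher means in mutant bone, 1 at an unadjusted p under 0.05, and 1 a lower mean. Des is also a skeletal muscle gene. Their summed intensity was 312 to 637 in wild-type bone and 559 to 654 in the mutant samples, and their part in the level of Acta2 was not tested. All 7 measured of 10 endothelial markers had higher means, 1 at an unadjusted p under 0.05, with sums of 216 to 303 and 300.4 to 350.4. Over all probe sets 5099 of 8997 had higher means, and 5.74% were higher at that p.

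The sarcomere forms had overlapping groups in all 8 genes, none at an unadjusted p under 0.05, with 3 lower and 5 higher means. The skeletal actin Acta1 read 1955, 2835 and 3614 in wild-type bone and 2309, 2603 and 2889 in mutant bone. Actc1, the cardiac actin that fetal skeletal muscle also makes, read 727, 1465 and 1174 against 833, 1191 and 1495. In both genes the lowest value of all came from wild-type replicate 1, and the mutant values lay within the wild-type range or, once for Actc1, just above it. Log2 differences were -0.069 ± 0.25 for Acta1 and 0.082 ± 0.31 for Actc1 (SE).

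The 2 alpha-actinins of the Z-disc, which anchors the thin filaments, went in opposite directions. Actn2, used in all fibre types, had the smallest p of the sarcomere forms, with 177, 354 and 505 in wild-type bone and 499.9, 349 and 459 in mutant bone. The wild-type values spanned the whole mutant range, and the log2 difference of 0.45 ± 0.35 (limma adjusted p = 0.767) was 0.029 once wild-type replicate 1 was left out and -0.049 when arrays were weighted. Actn3, the form of fast fibres, read 73.9, 139 and 187 against 95.0, 74.0 and 115. Its log2 difference of -0.41 ± 0.33 (limma adjusted p = 0.769) was -0.12 without wild-type replicate 3, -0.79 without wild-type replicate 1 and -0.88 when arrays were weighted. The difference between the 2 genes was not tested.

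The remaining sarcomere forms were the muscle cofilin Cfl2, which trims thin filaments, the muscle filamin Flnc, and the tropomyosins Tpm1 and Tpm2, which gate the access of myosin to actin. Cfl2 was at 169 ± 47.9 and 188 ± 20.1, and Flnc at 168 ± 64.1 and 188 ± 39.2 (SD, n = 3 each). Tpm1 was at 303 ± 90.3 and 320 ± 50.9, and Tpm2 at 412 ± 124 and 380 ± 105 (SD, n = 3 each). The 4 log2 differences lay between -0.11 and 0.23 and were smaller than their SE. Without wild-type replicate 1, 7 of the 8 sarcomere forms had lower mutant means, against 3 of 8 with all arrays, and with array weights all 8 did. The median log2 difference of all probe sets also fell, from 0.045 to -0.033 without that array and to -0.027 with array weights.

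The sarcomere forms spread more between arrays of a group than between the group means. Taken relative to each gene's own mean and to the median of the array, their median level was -0.34, 0.03 and 0.35 on wild-type replicates 1 to 3 and -0.098, -0.057 and 0.19 on the mutant replicates (log2). Of 20 skeletal muscle markers outside these families 18 were measured, 9 higher and 9 lower in mutant bone, and their medians on the same scale were -0.33, 0.025 and 0.45 in wild-type bone and -0.15, -0.18 and 0.30 in the mutant replicates. Both lists were highest on wild-type replicate 3 and next on mutant replicate 3. The summed intensity of the 18 markers was 3099 to 6924 in wild-type bone and 4583 to 6169 in mutant bone, and the part of muscle content in the levels of the sarcomere forms was not tested.

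**Figure D3:**
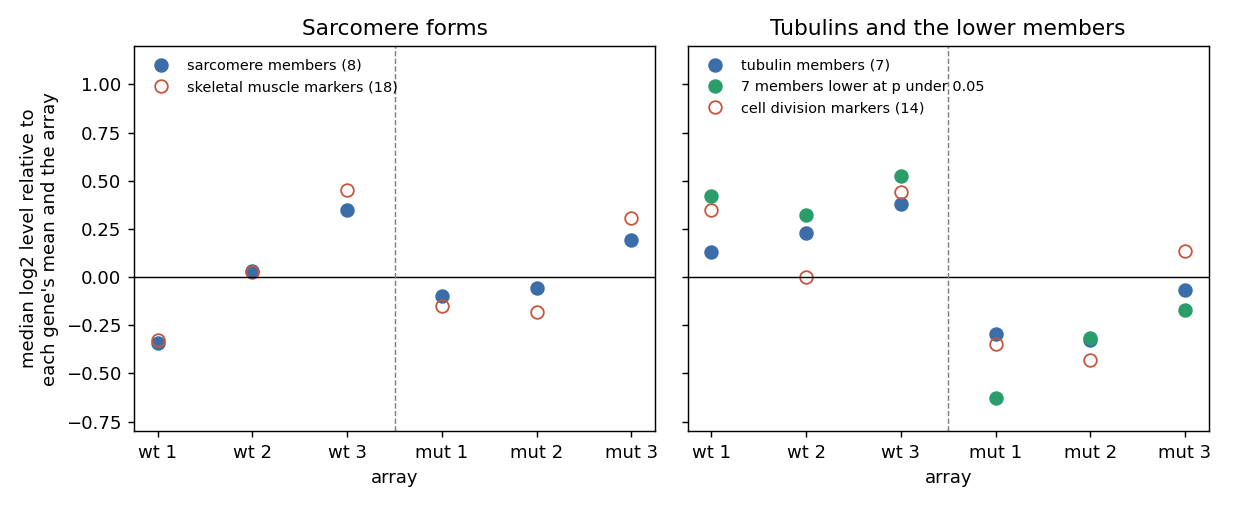
Median log2 level on each array (x axis) relative to each gene's mean over 6 arrays and to the median of the array (y axis), for sarcomere forms and skeletal muscle markers on the left, and for tubulins, the 7 lower members and cell division markers on the right. The sarcomere forms stand near the muscle markers on all arrays, while the tubulins are above 0 on the 3 wild-type arrays and below 0 on the 3 mutant arrays; the 7 lower members were chosen by this difference.

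Actin genes are classical targets of serum response factor, which binds an A/T-rich element called the CArG box. The promoters of the members were searched for this element. Promoter windows of RefSeq (build GRCm38.p6), from 250 bases before to 50 after the start, were on hand for 37 of the 45 genes, in 42 windows. A full CArG box, which has the same form on both strands, was found in 4 of the 42 windows (9.52%), those of Acta1, Actc1, Cnn2 and Arpc4, and in 1.63% of all 32851 windows. Of the 4 genes 2 are muscle forms, where 2 of 9 windows held it, and 2 are non-muscle forms; a difference between the forms was not tested. With at most 1 mismatch it was found in 14 of 42 (33.3%) and in 21.1% of all windows. The following stretches, with the box in capitals, are first those of both sarcomere actins and of the non-muscle calponin Cnn2. Then come both boxes with 1 mismatch of Acta2, the muscle form that was lower at an unadjusted p under 0.05.
Acta1, chr8:123894819-123894868, minus strand: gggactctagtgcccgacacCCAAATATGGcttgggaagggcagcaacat
Actc1, chr2:114052893-114052942, minus strand: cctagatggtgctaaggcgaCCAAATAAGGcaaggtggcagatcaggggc
Cnn2, chr10:79988524-79988573, plus strand: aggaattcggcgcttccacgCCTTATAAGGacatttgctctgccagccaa
Acta2, chr19:34255428-34255477, minus strand: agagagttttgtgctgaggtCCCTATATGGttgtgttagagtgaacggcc
Acta2, chr19:34255378-34255427, minus strand: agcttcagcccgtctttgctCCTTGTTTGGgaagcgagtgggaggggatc

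The box began 73 bases before the start in Acta1, 47 in Actc1, 56 in Cnn2, and 84 and 34 in Acta2. Windows were on hand for 6 of the 7 lower genes, and 0 of them held a full box. With at most 1 mismatch the box was found in 2 of the 7 windows of these 6 genes (28.6%), beside 21.1% of all windows. These were windows of Acta2 and of Crip1, where it began 96 bases before the start:
Crip1, chr12:113151896-113151945, plus strand: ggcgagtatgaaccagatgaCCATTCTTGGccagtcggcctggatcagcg
None of the 4 genes with a full box was at an unadjusted p under 0.05. The box of Arpc4 lay at the far end of its window, 250 bases before the start. Beside Acta1 and Actc1, given above, Cnn2 was at 76.9 ± 12.7 and 68.8 ± 15.9 and Arpc4 at 78.8 ± 6.02 and 79.0 ± 2.26 (SD, n = 3 each). These matches describe letters in a window and were not tested as binding sites.

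The Arp2/3 complex, which starts new branches on actin filaments, lay close to the wild-type level. Its 6 measured subunit genes, Actr3, Arpc1a, Arpc1b, Arpc2, Arpc4 and Arpc5, had overlapping groups and log2 differences from -0.19 to 0.19, with 4 higher and 2 lower means and 0 at an unadjusted p under 0.05. Without wild-type replicate 1, 5 of the 6 had lower means, with a median of -0.076 beside -0.033 for all probe sets. Arpc1a had the smallest p of these, with 38.6, 44.4 and 58.7 in wild-type bone and 35.2, 41.7 and 45.9 in mutant bone, a log2 difference of -0.19 ± 0.22 (limma adjusted p = 0.832). Its neighbour on the chromosome, Arpc1b, was at 169 ± 31.7 and 169 ± 30.3 (SD, n = 3 each), and a dimmer probe set of Arpc1b gave 0.22 ± 0.24. Actr3 was at 78.0 ± 3.38 and 72.1 ± 8.05, and Arpc2 at 107 ± 27.6 and 119 ± 1.47 (SD, n = 3 each).

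The actin-related proteins outside this complex were Actr1a, of the dynactin complex that links dynein to its cargo, and Actr8, a subunit of the INO80 chromatin remodeller in the nucleus. Actr8 read 15.7, 16.9 and 16.8 in wild-type bone and 25.0025, 25.0462 and 20.1873 in mutant bone. Its log2 difference was 0.50 ± 0.19 (limma adjusted p = 0.664). Capg, a gelsolin-family protein of macrophages and other cells that caps filament ends, had a like pattern, with 19.2, 14.8 and 18.1 against 28.6, 26.0 and 22.3 and a log2 difference of 0.56 ± 0.20 (limma adjusted p = 0.648). These were the 2 members higher at an unadjusted p under 0.05, and in both all wild-type values lay under 20, so the filter by level fixed the order of their groups. Both are among the dimmest 25% of probe sets. Beside Capg, 4 of 8 osteoclast markers were measured, all 4 higher and 3 at an unadjusted p under 0.05. Their sums were 594 to 1028 in wild-type and 1177 to 1690 in mutant samples. Of the 9 measured myeloid markers 7 had higher means, with sums of 404 to 631 and 550 to 619. Over all probe sets 5099 of 8997 had higher means, and 5.74% were higher at an unadjusted p under 0.05. The part of these markers in the level of Capg was not tested. Actr1a was at 50.6 ± 8.02 and 55.9 ± 13.7 (SD, n = 3 each).

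The thymosins Tmsb10 and Tmsb4x, the cofilin Cfl1 and the profilin Pfn1 act on actin monomers, and all 4 had lower means without passing. Thymosin beta-10, encoded by Tmsb10, which sequesters monomers, read 210, 293 and 306 in wild-type bone and 98.5, 180 and 287 in mutant bone. Mutant replicate 3 lay within the wild-type range and the other mutant arrays under it, with a log2 difference of -0.63 ± 0.36 and -0.65 ± 0.34 on its other probe set. Leaving out mutant replicate 1 gave -0.23, and leaving out mutant replicate 3 gave -0.998. The related Tmsb4x read 66.4, 106 and 117 against 57.3, 63.2 and 128. It too was high on mutant replicate 3 and low on the other mutant arrays. Cfl1, the cofilin that severs filaments outside muscle, was at 286 ± 53.5 and 239 ± 49.5, and Pfn1, the profilin that reloads monomers with ATP, at 307 ± 65.4 and 257 ± 30.4 (SD, n = 3 each), with log2 differences of -0.27 ± 0.24 and -0.25 ± 0.22. These were -0.085 for Cfl1 without mutant replicate 1 and -0.077 for Pfn1 without wild-type replicate 3.

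The heterodimer that caps the fast-growing filament end stood near the wild-type level in all 3 of its genes. Capzb was at 99.1 ± 24.5 and 96.8 ± 5.43, Capza1 at 68.5 ± 20.5 and 68.0 ± 14.6, and Capza2 at 42.5 ± 6.56 and 47.2 ± 8.49 (SD, n = 3 each). The non-muscle calponin Cnn3 was level too, at 117 ± 17.9 and 116 ± 19.2 (SD, n = 3 each). Of the 13 actin-binding members 10 had lower means, 3 of these at an unadjusted p under 0.05 (Crip1, Tagln2 and Crip2) and 1 higher member did so (Capg). Over all probe sets 43.3% had lower means, and 1.70% were lower and 5.74% higher at that p. Of the 3 lower genes only Crip1 reached it without wild-type replicate 2, wild-type replicate 3 or mutant replicate 1.

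**Figure D4:**
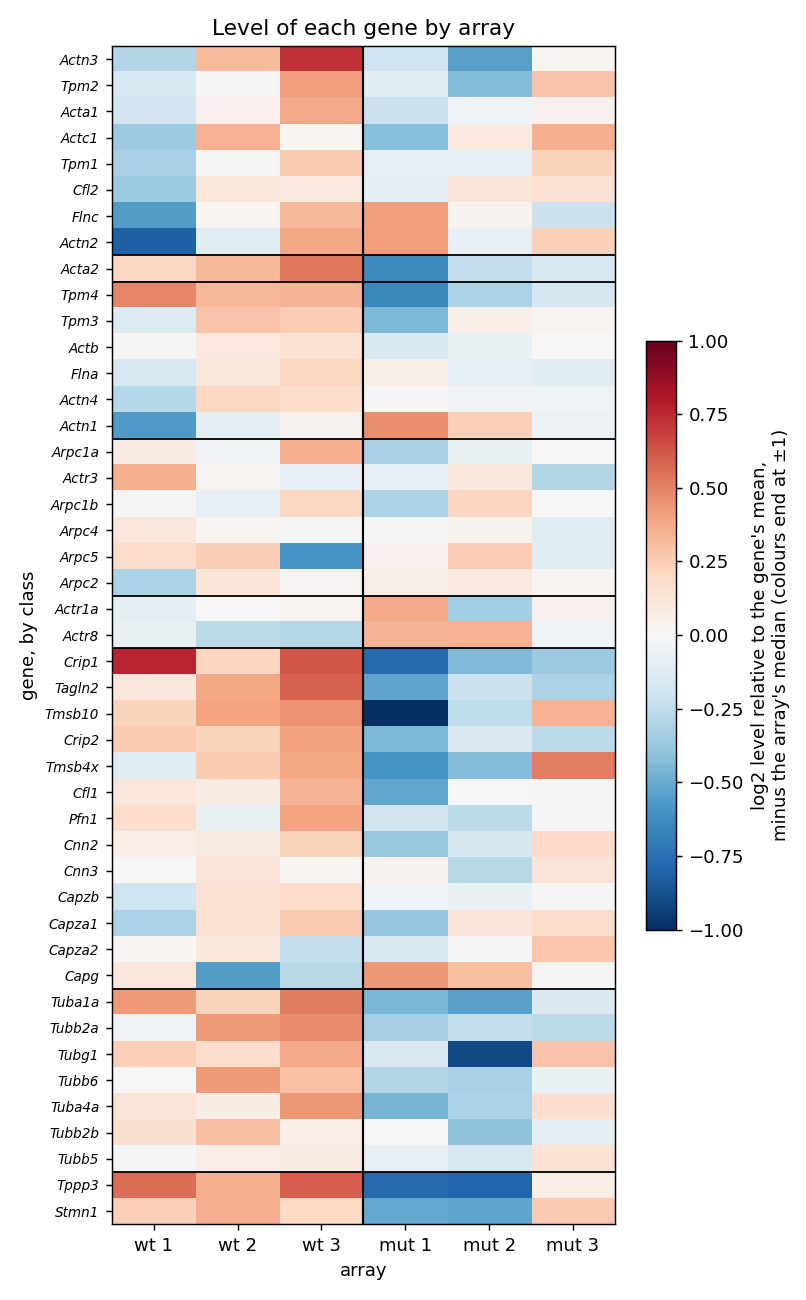
Log2 level of each of the 45 genes (rows, grouped by class with black lines) on each array (columns), relative to the gene's mean over 6 arrays and to the array's median, from -1 in dark blue to 1 in dark red. Crip1, Tpm4, Tuba1a and Tppp3 are red on the 3 wild-type arrays and, except for Tppp3 on mutant replicate 3, blue on the mutant arrays; Tmsb10, Tmsb4x, Tubg1 and Stmn1 are blue on mutant replicates 1 and 2 and red on mutant replicate 3.

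Tubulin genes had lower means in mutant bone in 7 of 7, beside 43.3% of all probe sets, though Tubb5 was level at -0.00071. Their median log2 difference was -0.39 beside 0.045 for all probe sets. At an unadjusted p under 0.05, 1 of the 7 was lower, beside 1.70% of all probe sets. The direction held for all 7 after quantile normalization and after median centring, and for 6 of 7 without wild-type replicate 2 or 3 or mutant replicate 1 or 2, where Tubb5 was the exception. Tuba1a, an alpha-tubulin prominent in young neurons and in many embryonic cells, read 541, 584 and 720 in wild-type bone and 353, 329 and 457 in mutant bone. The groups stood clear of each other, and the log2 difference of -0.70 ± 0.22, or 1.62-fold lower, had a limma adjusted p of 0.591. Tuba4a, another alpha-tubulin, was at 40.5, 48.2 and 62.3 against 32.2, 35.5 and 52.3, with overlap through mutant replicate 3.

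The beta-tubulins spanned a wide range of differences. Tubb2a read 32.0, 54.4 and 56.5 in wild-type bone and a steady 31.4, 33.2 and 34.0 in mutant bone. Only the dim wild-type replicate 1 kept its groups from separating, and the log2 difference was -0.49 ± 0.25 (limma adjusted p = 0.708). Tubb2b, its neighbour on the chromosome, was at 56.0 ± 8.73 and 46.5 ± 7.09 (SD, n = 3 each). Tubb6, which many non-neuronal cells use, read 84.5, 141 and 129 against 83.0, 80.5 and 102, a log2 difference of -0.39 ± 0.24. Here as well the overlap came from wild-type replicate 1, and without that array both Tubb2a (-0.75) and Tubb6 (-0.62) were at an unadjusted p under 0.05. Tubb5, the beta-tubulin of most dividing cells, was level, at 464 ± 69.7 and 463 ± 64.7 (SD, n = 3 each; log2 difference -0.00071 ± 0.21). The gamma-tubulin Tubg1, which nucleates microtubules at the centrosome, read 35.1, 41.6 and 48.1 against 31.9, 18.9 and 45.3.

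Tppp3, whose protein promotes the bundling of microtubules and marks cells of tendon sheaths, had the second largest difference of the 45 genes. It read 117, 126 and 149 in wild-type bone and 55.9, 54.7 and 104 in mutant bone. Mutant replicate 3 stood apart from the other mutant arrays and close to the wild-type range. The log2 difference was -0.93 ± 0.27, or 1.91-fold lower (limma adjusted p = 0.591), and -1.23 without that array. Stmn1, for stathmin, which takes microtubules apart and is abundant in dividing cells, read 127, 171 and 154 against 91.0, 89.2 and 162. Its mutant replicate 3 lay within the wild-type range, and the log2 difference was -0.45 ± 0.27 on this probe set and -0.46 ± 0.27 on the other, and -0.73 on the first without mutant replicate 3.

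Markers of cell division had lower means, as the tubulins did. Of 20 genes 14 were measured, all 14 with lower mutant means, beside 43.3% of all probe sets, and 2 lower at an unadjusted p under 0.05, beside 1.70%. Their summed intensity was 545 to 812 in wild-type bone and 388 to 616 in the mutant samples. Relative to each gene and array their medians were 0.35, -0.0019 and 0.44 in wild-type replicates 1 to 3 and -0.35, -0.43 and 0.13 in the mutant replicates (log2). Those of the tubulins were 0.13, 0.23 and 0.38 and then -0.29, -0.33 and -0.065. Both were low on mutant replicates 1 and 2, and the part of cell division in the tubulin levels was not tested. Epidermal markers, of which 6 of 14 were measured, summed to 1798, 1248 and 47.3 in wild-type replicates 1 to 3 and to 75.3, 460.4 and 51.3 in the mutant replicates, and all 6 had lower mutant means. Their part in the levels of the lower members was not tested. Of 14 nerve and Schwann cell markers 0 were measured under a single symbol, of 9 megakaryocyte markers 1 was, and of 11 erythroid markers 2 were, 1 higher and 1 lower.

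**Figure D5:**
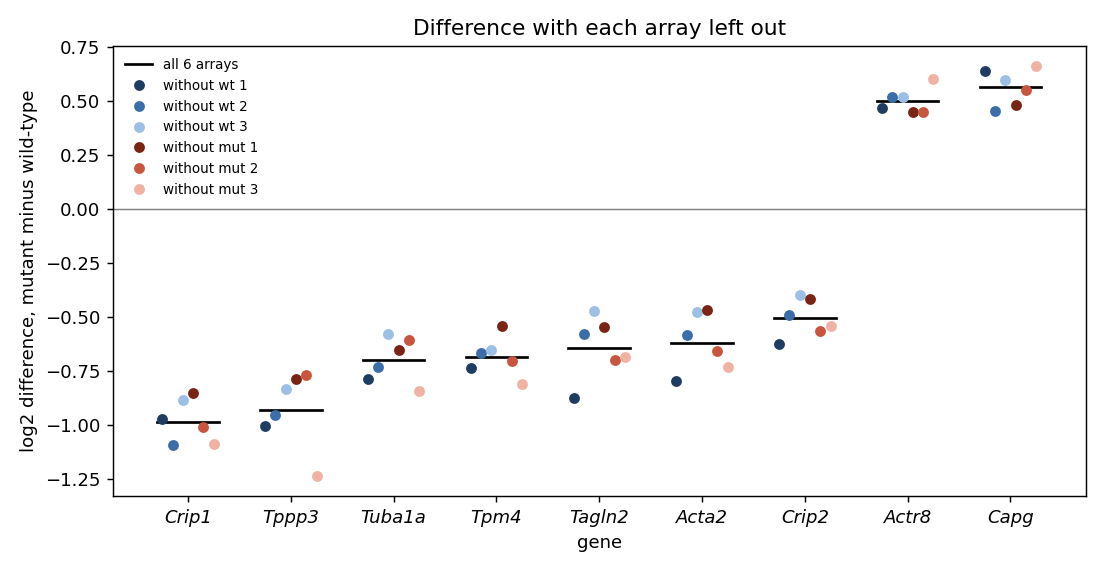
Log2 difference, mutant minus wild-type (y axis), of the 9 members at an unadjusted p under 0.05 (x axis), with a bar for all 6 arrays and a point for the fit without each array. The points of the 7 lower genes lie below 0, as they must where every mutant value is below every wild-type value. The side of Capg and Actr8 was fixed by the filter by level. Crip1 stays between -1.09 and -0.85 and Tppp3 between -1.23 and -0.77.

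With each array left out in turn, Tuba1a stayed between -0.84 and -0.58, Tpm4 between -0.81 and -0.54, Tagln2 between -0.87 and -0.47, Acta2 between -0.80 and -0.47 and Crip2 between -0.63 and -0.40. Over all 15 alternatives, 0 of the 45 genes were called, and the lowest limma adjusted p of Crip1 was 0.105, with array weights. The count of genes with all mutant values below all wild-type values can only stay or rise when an array is left out. It was 19 of 45 without wild-type replicate 1, where 12.5% of all probe sets were so ordered, and 14 of 45 without mutant replicate 3, where 12.4% were.

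The partners of these proteins, from lists of genes outside the families, had more higher than lower means, as did all probe sets (5099 of 8997 higher). Of 55 genes of actin partners 47 were measured, 29 higher and 18 lower, with a median log2 difference of 0.075 and 0 at an unadjusted p under 0.05. Pdlim1 and Pdlim5 encode PDZ-LIM proteins of stress fibres and Z-discs. Pdlim1 read 72.7, 94.4 and 99.1 in wild-type samples against 77.4, 54.5 and 59.9, a log2 difference of -0.48 ± 0.22 (limma adjusted p = 0.686). Pdlim5 read 33.4, 90.2 and 74.7 against 113, 103 and 76.7, at 0.66 ± 0.35 (limma adjusted p = 0.708), and at 0.23 without wild-type replicate 1. Both genes had overlapping groups, as had Myl9, a myosin light chain of smooth muscle. Myl9 read 51.3, 68.7 and 88.3 against 31.1, 44.0 and 68.1, at -0.58 ± 0.31 (limma adjusted p = 0.708), and leaving out mutant replicate 1 gave -0.31, mutant replicate 3 -0.87.

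Microtubule partners had 29 of 48 genes measured, 20 higher and 9 lower, with a median log2 difference of 0.070. Mid1, a ubiquitin ligase on microtubules, read 25.3, 48.7 and 27.7 in wild-type bone and 66.4, 60.3 and 52.8 in mutant bone. All its mutant values lay above the wild-type values, at 0.88 ± 0.27 (limma adjusted p = 0.591). Dynll1, a light chain of dynein, read 80.4, 81.8 and 99.7 against 28.0, 47.3 and 77.0. Its mutant values all lay below, close to the wild-type range only on mutant replicate 3, at -0.89 ± 0.33 (limma adjusted p = 0.657), and at -0.53 without mutant replicate 1. The dynactin gene Dctn4 read 24.98, 48.8 and 41.7 against 57.5, 57.5 and 46.5, with overlapping groups. Its log2 difference was 0.53 ± 0.27 (limma adjusted p = 0.706), and 0.25 without wild-type replicate 1. Over these lists of partners 0 genes passed at an adjusted p of 0.05.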

How the data were processed

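Total RNA was purified on RNeasy columns and labelled for single-colour Affymetrix whole-transcript arrays, per the labels' protocols. The deposited values were linear intensities, 1 per probe set and array; background correction, summarisation, scaling and the filter by level are not given in the sources used here. Symbols came from the platform annotation of 2016, and all 52 member probe sets kept their symbol when matched by Entrez identifier to RefSeq genes (GRCm38.p6). Intensities were put on the log2 scale with no further normalization, and 2 group means were fitted to all 8997 probe sets in R 4.3.3 (limma 3.58.1, functions lmFit and eBayes). Every test is two-sided, with Benjamini-Hochberg adjustment over all probe sets and a threshold of 0.05. Members, classes and lists were chosen with earlier results of these data known. Full values are given for members at an unadjusted p under 0.05 and the member of smallest p in each class, and for the 3 genes of smallest p in each partner list reported; a further partner list is not reported here. Values on every array were added for other members after they were seen. The procedure was tested on simulated data with independent noise for each probe set and no dim array. That setting differs from these arrays. Alternatives were 2 scalings, 2 filters on dim probe sets, 16 added before log2, an intensity trend, weighted arrays, a block by replicate number, means over probe sets, a threshold of 0.1, and each array left out. Tables and plots were made in Python 3.11.15 (pandas 2.3.3, matplotlib 3.10.9). The number of arrays limits the precision.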

Additional observations from a re-analysis of the deposited data

How the results depend on the processing

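No member was called at an adjusted p of 0.05 under any of the 15 alternatives, or at 0.1. Members lower at an unadjusted p under 0.05 numbered 7, beside 1.70% of all probe sets. They numbered 9 after quantile normalization (beside 3.58%) and 9 after median centring (beside 3.27%). With array weights they numbered 17 (beside 8.85%), and with each array left out 4 to 10. Higher members numbered 2, and 0 without the dimmest 25% or the dimmer 50% of probe sets, which leave out both, 1 with 16 added before log2, and 0 to 3 with an array left out. Every mutant value was under the lowest wild-type one in 7, in 11 after quantile normalization, in 11 after median centring and in 7 to 19 with an array left out. The share of all probe sets so ordered rose too, from 3.89% to 6.86%, 6.09% and 6.02% to 12.5%. Every mutant value was above the highest wild-type one in 2, in 0 after quantile normalization, 1 after median centring, 0 without the dimmest 25% and 0 without the dimmer 50%, and in 2 to 4 with an array left out. Over all probe sets that share was 9.18%, and 9.18% after quantile normalization, 9.7% after median centring and 10.7% to 19.0% with an array left out. The medians of muscle and non-muscle forms moved by less than 1 SD between replicates, from -0.20 to 0.17 and from -0.32 to -0.062 with an array left out.

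The 7 lower members kept their direction after quantile normalization and after median centring. Under the rest of the 15 alternatives it could not turn, since every mutant value of these genes lay below every wild-type value. The direction of Capg and Actr8 was fixed by the filter by level. Among the other members, quantile normalization turned Acta1 (0.018), Actn4 (-0.053), Arpc1b (-0.060), Arpc4 (-0.030) and Capza1 (-0.032). Median centring turned Actn4 (-0.038), Arpc1b (-0.053), Arpc4 (-0.050) and Capza1 (-0.042). Array weights turned Actc1 (-0.11), Actn2 (-0.049), Actn4 (-0.20), Actr1a (-0.11), Arpc1b (-0.078), Arpc4 (-0.028), Capza1 (-0.20), Cfl2 (-0.020), Flnc (-0.10) and Tpm1 (-0.18). With an array left out Acta1 ranged from -0.31 to 0.14, Actc1 from -0.20 to 0.31, Actn4 from -0.24 to 0.15, Actr1a from -0.042 to 0.32, Arpc1b from -0.13 to 0.15, Arpc2 from -0.043 to 0.33 and Arpc4 from -0.058 to 0.046. Arpc5 ranged from -0.024 to 0.39, Capza1 from -0.26 to 0.20, Capzb from -0.23 to 0.12, Cfl2 from -0.074 to 0.32, Cnn3 from -0.14 to 0.12 and Flna from -0.23 to 0.11. Flnc ranged from -0.12 to 0.48, Tpm1 from -0.14 to 0.30, Tpm2 from -0.33 to 0.11 and Tubb5 from -0.13 to 0.075. The cause of these turns was not tested.

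The replicate number as a block gave 8 lower and 2 higher members at an unadjusted p under 0.05, beside 2.62% and 4.95% of all probe sets, and 0 calls. Same-numbered samples deviated from their group means with correlations of -0.11, -0.026 and 0.32, 1 of 3 over 0.1, and 2 of 6 samples correlated best with their own number, so the numbers were not taken to pair the samples. The filter by level and unstated background handling limit what can be said of Capg and Actr8.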
